A study of Oryza sativa with 12 samples.

Results

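The drought response of polysome-bound mRNA was compared between the rice cultivars APO and IR64. The difference was formed for each gene as drought minus control in APO, minus drought minus control in IR64, over 12 of the 12 libraries. The groups were APO under 50% drought, APO control, IR64 under 50% drought and IR64 control, with 3 leaf libraries each and no plant age in the labels. The series title calls APO tolerant and IR64 susceptible. Whether libraries of 1 group are from different plants is not given in the sources used here, so p-values measure only the spread between these libraries, which may be technical. A second form left out APO control 3 as well as the library labelled APO drought 1, and used 10 libraries, with 2 APO libraries in drought and 2 in control. Levels are TPM rescaled to the same total (1e+06) over the 37849 nuclear loci of each library ("rescaled TPM"), because ribosomal RNA took very unequal shares of the deposited TPM. Responses are differences of log2(rescaled TPM + 1), which understate changes of low genes.

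Polysomes are mRNAs that carry several ribosomes, so their mRNA is taken as mRNA in translation. Under water deficit, rice leaves accumulate abscisic acid, which acts through SnRK2 kinases and bZIP factors on genes for late embryogenesis abundant (LEA) proteins and dehydrins, small hydrophilic proteins that protect other molecules as cells dry. Mesophyll cells also lower photosynthesis, whose light reactions, Calvin cycle, chlorophyll synthesis and photorespiration depend largely on nuclear genes. Ribosome loading and mRNA amount cannot be told apart, since total RNA was not used here. In leaf tissue taken as a whole, fewer cells of a type and less RNA per cell cannot be told apart either.

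The libraries were unequal, and some stand apart. Nuclear loci held 1.21 to 83.3% of the deposited TPM, and 9976 to 31980 of them were above 0. The library labelled APO drought 1 had the lowest value of both, with 1.21% and 9976, and APO control 3 had 5.04% of TPM on nuclear loci. Genes typical of 1 cultivar were chosen without the library they were read in, and always without the library labelled APO drought 1. They had at least 8 rescaled TPM in every remaining library of that cultivar. Their lowest value there was at least 8 times the highest remaining value of the other cultivar. Of 17 APO-typical genes, 0 reached 1 rescaled TPM where the label reads APO drought 1, and 3 of 8 IR64-typical genes did. That library was at 0 for 64.8% of all genes tested with an APO response above 0 in 10 libraries. For those with an APO response below 0 it was at 0 for 54.1%. A 0 there may mean too little sampling, so these counts do not settle whether its label holds. In APO control 3, 17 of 17 APO-typical genes reached 1 rescaled TPM, but so did 10 of 17 IR64-typical genes, whose median there was 1.66. IR64 control 3 held 8 of 8 IR64-typical genes, but its levels had a Spearman correlation of 0.945 with APO control 2 and of 0.873 with IR64 control 2 (over genes, as a description). The 12 leaf markers (Rubisco small subunit, light-harvesting and PsbR genes) summed to 1629 to 33870 rescaled TPM in every library, against at most 10.8 for the root marker RCc3 and 19.1 for 9 seed storage genes.

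Over all 12 libraries, no gene passed for a different drought response in the 2 cultivars. Of 26192 genes tested by limma, 0 were called at a Benjamini-Hochberg adjusted p below 0.05 (0%), and 2789 had an unadjusted p below 0.05, 454 of them higher and 2335 lower in APO. The smallest adjusted p was 0.195, and the median standard error of a difference was 1.28 log2 units. In the same fit 793 genes changed in APO (3.03%) and 2 in IR64 (0.00764%). Those 2 changed in both cultivars. OsDSSR1 (Os09g0109600) rose by 6.54 log2 units in APO and by 4.65 in IR64, and the asparaginase OsASNase2 (Os04g0650700) had responses of -5.19 and -4.20.

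The genes with the smallest p over 12 libraries, among those with a symbol, are given as not passing. Among those with a higher response in APO, OsMyb1R (Os02g0685200, a MYB-type gene by its symbol) differed by 7.65 ± 1.38 log2 units (SE; limma adjusted p = 0.195). Its level was 15.9, 60.1 and 51.4 rescaled TPM in the libraries labelled APO drought 1, 2 and 3 and 0, 0.629 and 0 in APO control, against 0, 0.503 and 0 in IR64 drought and 14.8, 15.7 and 0.383 in IR64 control. IR64 control 3 thus stood with the IR64 drought libraries for this gene. The beta-glucosidase genes Os5bglu22 and Os9bglu31 differed by 6.76 ± 1.37 and 5.05 ± 1.27 (limma adjusted p = 0.206 and 0.28). The magnesium transporter gene OsMRS2-6 differed by 7.57 ± 1.76, and SAMDC, an enzyme of polyamine synthesis, by 3.13 ± 0.78 (limma adjusted p = 0.259 and 0.28). In these genes too IR64 control 3 lay near IR64 drought. Over IR64 control 1, 2 and 3 Os5bglu22 stood at 222.0, 245.2 and 13.4 and Os9bglu31 at 183.7, 267.5 and 15.4. OsMRS2-6 stood at 151.9, 213.9 and 5.75 there and SAMDC at 301.9, 351.9 and 91.4. In the other direction, OsFWL8 (Os03g0830300) was at 0, 0 and 0 in APO drought, at 37.1, 35.9 and 34.3 in APO control, and listed at 0 in all 6 IR64 libraries. HSR201 had the same kind of pattern, with 0, 0 and 0.561 in APO drought, 66.2, 30.4 and 197.9 in APO control, and 0 in every IR64 library. OsACS6 (Os01g0901600), whose function was not checked, stood at 0, 0 and 2.64 in APO drought and 58.7, 47.8 and 50.2 in APO control. In IR64 it stood at 25.0, 10.4 and 11.5 in drought and 11.2, 7.92 and 13.4 in control (limma adjusted p = 0.195). For OsFWL8, HSR201 and OsACS6 the library labelled APO drought 1 was at 0, which cannot show that it sides with APO drought. Of all genes tested with an APO response below 0 in 10 libraries, 54.1% were at 0 in it. OsCAT1 (Os01g0209800) and OsFKBP19 had differences of -4.82 ± 0.79 and -6.10 ± 1.02. The library labelled APO drought 1 was at 0 for both of them too.

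With 10 libraries, 1183 of 22812 genes had a response that differed between the cultivars (5.19%). The response was higher in APO for 351 (1.54%) and lower in APO for 832 (3.65%), so 29.7% of the calls were higher. That split moved with the scaling: 79.9% of 359 calls were higher in the deposited TPM, 85.9% of 305 in the deposited FPKM, 55.1% of 1146 under median-of-ratios scaling and 41.2% of 1305 under quantile normalization. The median difference over all genes was -0.33 log2 units, and it was 0.36 under median-of-ratios scaling and 0.25 in deposited TPM. In APO 1551 genes rose (6.8%) and 1734 fell (7.6%), while in IR64 255 rose (1.12%) and 70 fell (0.307%). The overlap of rises was 198 genes, 12.8% of the APO rises and 77.6% of the IR64 rises. The overlap of falls was 43 genes, 2.48% of the APO falls and 61.4% of the IR64 falls. Of the 1551 APO rises, 1160 had an IR64 response above 0 and 372 below 0. Of the 1734 APO falls, 812 had an IR64 response below 0 and 903 above 0. Over all genes tested the 2 responses had the same sign in 50.2% (Pearson r = 0.181, Spearman rho = 0.105, across genes as a description).

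**Figure D1:**
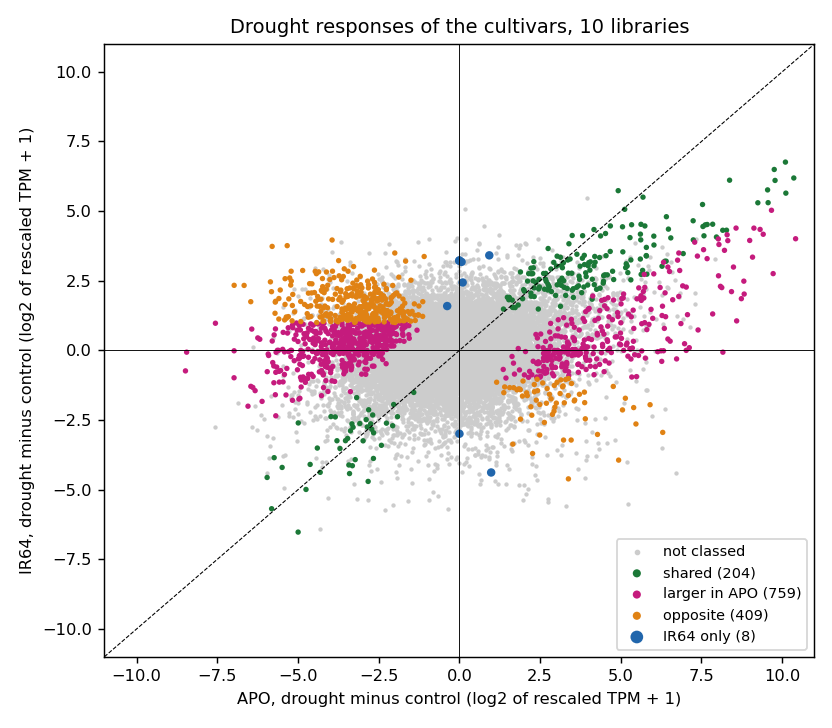
Drought minus control in APO (x axis) and in IR64 (y axis), both in log2(rescaled TPM + 1), for the 22812 genes tested in 10 libraries. Colours mark the response classes and the dashed line equal responses. The 204 shared genes lie along the line, mostly below it on the side of rises, the 759 genes with a larger response in APO lie along the horizontal axis, and most of the 409 opposite genes lie at upper left.

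Each gene was put in 1 class. Shared means called in both cultivars in 1 direction with no call for the difference. Larger in APO means a called difference, a called APO response and the larger size in APO. Opposite means a called difference with responses of different sign, each at least 1 log2 unit. IR64 only means a called difference with a called response in IR64 and none in APO. There were 204 shared, 759 larger in APO, 409 opposite and 8 IR64 only, 0 were larger in IR64, and 7, among them OsHRZ2, fell in no class. Absence of a call does not make a response equal: for 0 of the 204 shared genes did the 95% interval of the difference lie within 1 log2 unit of 0.

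Shared rises comprised 163 genes (0.715% of those tested), and among those with a symbol the 6 ranked first were dehydrin, LEA and lipid transfer genes. Their median response was 3.91 log2 units in APO and 2.95 in IR64, and 156 of the 204 shared genes had the larger response in APO. The dehydrin gene Rab16A (Os11g0454300, chromosome 11, 15342877 to 15343671) stood at 44910 and 22010 rescaled TPM in APO drought 2 and 3 with 2639 for the library labelled APO drought 1, against 30.01, 25.4 and 119.9 in APO control. In IR64 it stood at 3049, 3273 and 5654 in drought and 215.3, 16.6 and 10.6 in control. Drought and control did not overlap in either cultivar. Its response was 10.1 ± 1.09 log2 units in APO and 6.76 ± 0.89 in IR64 (SE), and the difference of 3.34 ± 1.41 did not pass (limma adjusted p = 0.173). RAB16B, a second dehydrin gene of the RAB16 cluster, OsLEA25 and OsLEA3 (Os06g0324400) rose by 9.55, 10.1 and 8.37 in APO and by 5.76, 5.65 and 6.11 in IR64. Genes of the RAB16 cluster are alike and may share reads. OsLTP2.5 and OsLTPd6, lipid transfer protein genes, rose by 10.4 and 9.75 in APO and by 6.19 and 6.50 in IR64.

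Shared falls comprised 41 genes (0.18%), with median responses of -3.32 in APO and -3.16 in IR64. HD3A (Os06g0157700, chromosome 6, 2940004 to 2942452), the florigen that leaves send to the shoot tip, was at 0, 0 and 0.842 rescaled TPM in the libraries labelled APO drought 1, 2 and 3 and at 27.4, 65.0 and 0 in APO control 1, 2 and 3. It was at 0 in all 3 IR64 drought libraries and at 149.8, 183.8 and 26.9 in IR64 control. The APO groups overlap through APO control 3, and the IR64 groups do not overlap. OsASNase2 fell in both cultivars, to 6.91 and 30.4 in APO drought 2 and 3 and 60.8, 41.1 and 43.9 in IR64 drought, against 672.7 and 744.8 in the first 2 APO control libraries and 1058, 873.2 and 785.5 in IR64 control. OsNCED1 (Os02g0704000), a 9-cis-epoxycarotenoid dioxygenase gene of abscisic acid synthesis, had responses of -5.74 in APO and -3.85 in IR64. The carbonic anhydrase gene OsalphaCA2, the potassium transporter gene OsHAK17 and OsCYP76M7, a cytochrome P450 of diterpenoid phytoalexin synthesis, also fell in both.

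**Figure D2:**
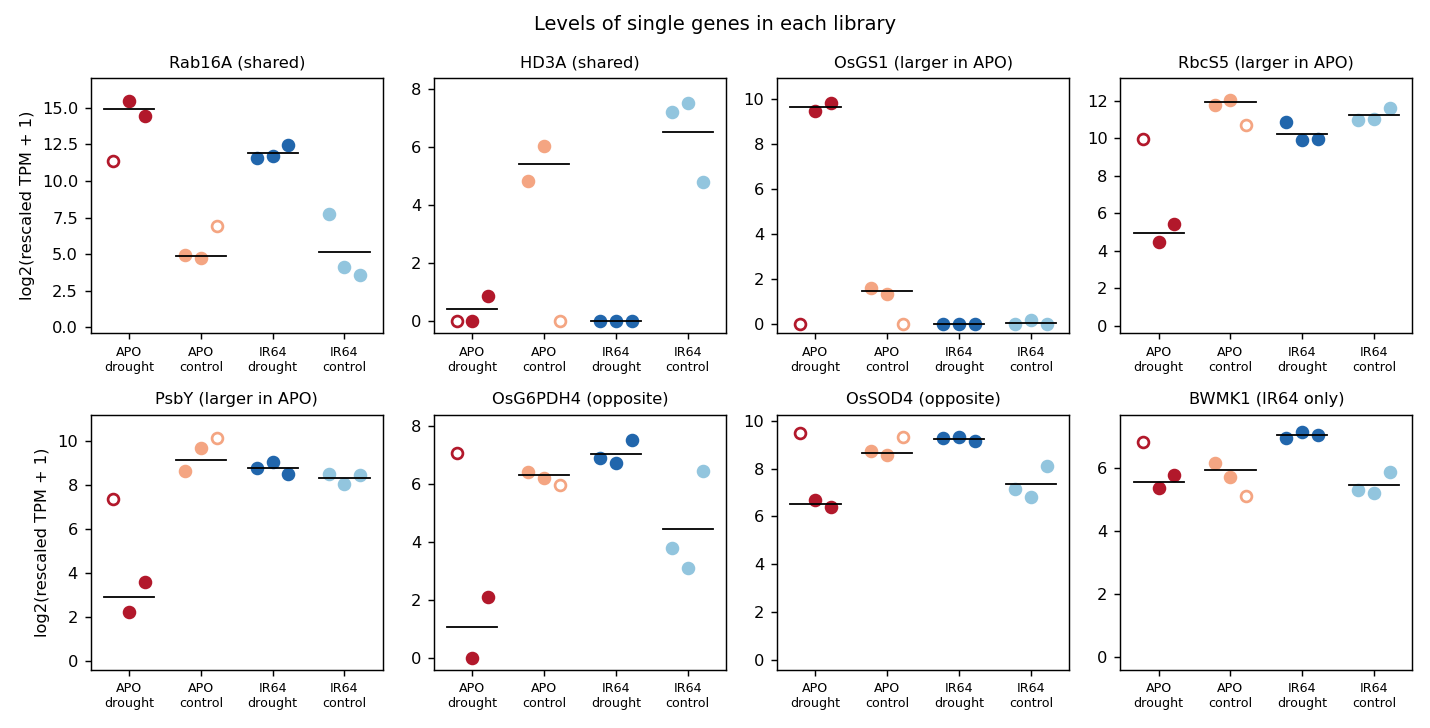
Level of 8 genes in each library as log2(rescaled TPM + 1), with the response class in the panel title. Filled points are the 10 libraries, open points are the 2 libraries left out, and lines are means of the filled points. Rab16A is high in every drought library of both cultivars, OsGS1 only in APO drought 2 and 3, and OsG6PDH4 is low in APO drought 2 and 3 and in IR64 control 1 and 2.

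Genes larger in APO that rose there numbered 283 (1.24%), with a median response of 4.09 log2 units in APO and 0.20 in IR64. The IR64 response was also called for 35 of them. Of all 759 genes larger in APO, 319 had an IR64 response of the same sign as in APO. Among genes with a symbol the largest difference was that of OsGS1 (Os03g0712800, chromosome 3, 28822424 to 28826321), a cytosolic glutamine synthetase, which stood at 706.0 and 897.1 rescaled TPM in APO drought 2 and 3 and 2.07 and 1.52 in APO control 1 and 2. It was listed at 0 in the library labelled APO drought 1, in APO control 3 and in 5 of the 6 IR64 libraries, with 0.143 in IR64 control 2. The difference was 8.23 ± 0.76 log2 units (limma adjusted p = 0.00289). OsDT11, a short cysteine-rich peptide gene tied to drought tolerance in rice, stood at 103.8 and 161.3 in APO drought 2 and 3, at 5.15 in APO control 3, and was listed at 0 in every other library. OsEnS-40, at 144.0 and 76.6 in APO drought 2 and 3, was likewise at 0 elsewhere except for 0.890 in IR64 control 1. In all, 8 of the 283 genes were listed at 0 in all 6 IR64 libraries (2.83%, against 0.666% of all genes tested). So were 12 of the 476 genes of this class that fell in APO (2.52%). The class itself favours such genes, since it needs a called APO response and the larger size in APO. Whether these zeros reflect the cultivar's genome or its expression was not tested.

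OCPI2 (Os01g0615100), a chymotrypsin inhibitor, stood at 8584 and 5545 rescaled TPM in APO drought 2 and 3 and 13.8 and 20.8 in APO control 1 and 2, against 25.0, 75.9 and 70.7 in IR64 drought and 35.5, 42.9 and 8.89 in IR64 control. The IR64 groups overlap and the APO groups are far apart, and the library labelled APO drought 1 was at 0. The difference was 7.53 ± 0.94 (adjusted p = 0.00668). OsJRL, a jacalin-related lectin gene, differed by 6.96 ± 1.03 and OsZFP by 7.03 ± 1.56. The cytosolic chaperone gene HSP70 (Os03g0277300) stood at 1333 and 2024 in APO drought 2 and 3 and 4.57 and 6.12 in APO control 1 and 2, against 69.0, 92.7 and 116.1 in IR64 drought and 25.3, 13.3 and 6.80 in IR64 control. It rose in both cultivars, by 8.03 in APO and 2.68 in IR64, and by more in APO (difference 5.35 ± 0.70, adjusted p = 0.00763).

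Of 28 LEA and dehydrin genes tested, 20 rose and 1 fell in APO, beside 6.8% and 7.6% of all genes tested. In IR64 14 rose and 0 fell, beside 1.12% and 0.307% of all genes tested. The response was higher in APO for 10 (against 1.54% of all genes tested) and lower for 0, and 25 of 28 differences were above 0. The median response was 6.26 log2 units in APO and 2.17 in IR64, against -0.24 and 0.16 over all genes. Summed over the 31 measured members, levels were 96661 and 52384 rescaled TPM in APO drought 2 and 3 and 10202 in the library labelled APO drought 1, 1621, 1095 and 3520 in APO control, 7682, 9018 and 16019 in IR64 drought, and 2197, 1566 and 1557 in IR64 control. Every drought library lay above every control library. OsLEA18 differed by 6.80 ± 1.64, the dehydrin gene RAB21 (Os11g0453900) by 4.97 ± 0.91 and OsLEA2 by 4.79 ± 0.78 (adjusted p = 0.0428, 0.0197 and 0.0133). RAB21 rose in both cultivars, to 1038 and 627.3 in APO drought 2 and 3 and to 68.6, 20.5 and 68.2 in IR64 drought, against 0 and 0.607 in the first 2 APO control libraries and 3.16, 0.947 and 0.533 in IR64 control.

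The counts of the next lists stand beside 1.54% of all genes with a higher and 3.65% with a lower response in APO. Of 38 abscisic acid genes, the response was higher in APO for 2, OsNCED2 (Os12g0617400, 4.20 ± 0.94, adjusted p = 0.0344) and the SnRK2 kinase gene SAPK1 (2.98 ± 0.74, adjusted p = 0.0457), and lower for 0. Shared rises took in 6 of the 38, beside 0.715% of all genes tested. Among them were the phosphatase genes OsPP2C51 (5.75 in APO, 4.47 in IR64) and OsPP2C30 (3.16 and 2.34) and the kinase gene SAPK4 (2.64 and 2.20). These 3 were named after their values were seen. The list's median response was 0.03 in APO and 0.86 in IR64. Of 51 heat shock genes the response was higher in APO for 5 and lower for 1, with median responses of 0.91 and -0.03. Hsp90 (Os04g0107900) differed by 6.05 ± 1.33 and the small heat shock protein gene Oshsp16.9C by 3.59 ± 0.77. Of 48 genes for pathogenesis-related, chitinase and germin-like proteins, 6 were higher and 2 lower, led by OsPR4c (4.71 ± 0.76) on one side and HSR201 (-5.20 ± 0.79) on the other. The lectin gene OsJAC1 of the same list stood at 14.5 and 41.6 in APO drought 2 and 3 and 3496 and 1340 in APO control 1 and 2, against 0 in all 3 IR64 drought libraries and 0.390, 1.60 and 3.40 in IR64 control. Of 37 lipid transfer protein genes 3 were higher, among them OsLTPG17 and OsLTPG12 (3.84 and 3.19), and 1, OsLTPd8, was lower. For OsLTPG17 APO control 3 stood at 31.3, above APO drought 2 and 3 (9.30 and 11.1). With 12 libraries its difference was 1.19 (limma adjusted p = 0.839).

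Genes larger in APO that fell there numbered 476 (2.09%), with a median response of -3.42 log2 units in APO. Their median response in IR64 was 0.30, which is not a fall. The IR64 fall was called for 2 of them. OsGDCH (Os10g0516100, chromosome 10, 19894753 to 19896794), a glycine decarboxylase subunit of photorespiration, was at 0 and 5.003 rescaled TPM in APO drought 2 and 3 and 731.8 and 1054 in APO control 1 and 2. In IR64 it was at 566.7, 423.8 and 309.5 in drought and 629.9, 679.5 and 804.6 in control. The difference was -7.75 ± 0.88 (adjusted p = 0.00571). The library labelled APO drought 1 was at 266.2, within the range of APO control once APO control 3 (133.5) is counted.

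**Figure D3:**
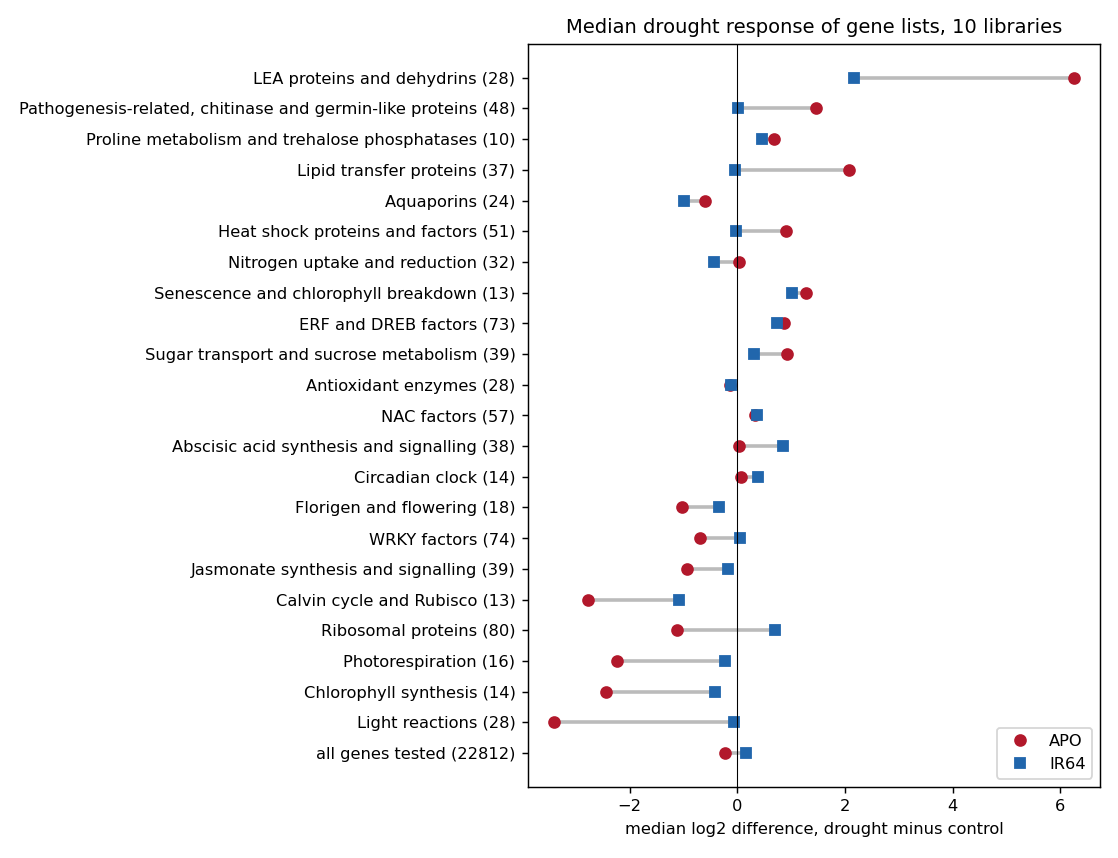
Median response, drought minus control in log2(rescaled TPM + 1), of each gene list in APO (circles) and IR64 (squares), 10 libraries, with the number of genes tested in brackets. LEA proteins have the largest positive median in APO (6.26, against 2.17 in IR64), and light reactions the lowest (-3.40, against -0.06), beside -0.24 and 0.16 for all genes at the bottom.

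The photosynthesis lists stood lower in APO. Of 28 light reaction genes, the response was lower in APO for 15 (against 3.65% of all genes tested) and higher for 0. The median was -3.40 in APO and -0.06 in IR64. PsbY (Os08g0119800, chromosome 8, 1089757 to 1090733), a small subunit of photosystem II, stood at 3.72 and 11.3 rescaled TPM in APO drought 2 and 3 and 398.0 and 835.1 in APO control 1 and 2, against 445.6, 529.9 and 364.0 in IR64 drought and 360.8, 263.5 and 355.2 in IR64 control. It fell in APO by 6.25 ± 0.51, the IR64 response was 0.45 ± 0.42, and the difference was -6.70 ± 0.66 (adjusted p = 0.00328). PsbX differed by -6.11 ± 0.84 and a PsbP gene (Os03g0279950) by -6.08 ± 1.498. Not every member took part: PSBS2, a sensor of energy quenching, and CAB1R, of the light-harvesting complex, had differences of 2.69 and 0.13 that did not pass (adjusted p = 0.254 and 0.961; both named after their values were seen). Summed over 29 genes, light reaction levels were 7070 and 5032 in APO drought 2 and 3 and 24604 in the library labelled APO drought 1, 24008, 40039 and 19474 in APO control, 36322, 34008 and 22335 in IR64 drought, and 47300, 49414 and 34251 in IR64 control. The library labelled APO drought 1 thus lay within the APO control range.

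Of 13 Calvin cycle and Rubisco genes, 4 had a lower response in APO and 0 a higher one (3.65% of all genes were lower, for this and the next lists), with medians of -2.77 in APO and -1.08 in IR64. RbcS5 (Os12g0291400, chromosome 12, 11277247 to 11278306), a Rubisco small subunit gene, stood at 20.8 and 42.5 in APO drought 2 and 3 and 3495 and 4330 in APO control 1 and 2, against 1886, 972.2 and 988.2 in IR64 drought and 2063, 2111 and 3222 in IR64 control. Its difference was -6.00 ± 0.69 (adjusted p = 0.00572), and the nearby copies RbcS3 and RBCS (Os12g0292400), which may share reads with it, differed by -4.33 ± 0.84 and -4.28 ± 0.65. Of 16 photorespiration genes 4 were lower and 0 higher (medians -2.23 and -0.23), with the glycolate oxidase genes GLO5 and OsGLO1 at -5.95 ± 0.98 and -3.80 ± 0.71. Of 14 chlorophyll synthesis genes 6 were lower and 0 higher (medians -2.44 and -0.41), led by the chlorophyll synthase gene YGL1 (-5.62 ± 1.04), the methyltransferase gene ChlM (-5.43 ± 0.76) and the uroporphyrinogen decarboxylase gene HEME (-4.46 ± 0.96). PPX, a protoporphyrinogen oxidase by its symbol, differed by -6.47 ± 0.86. In the 12-library fit each of these lists, like all 22, had 0 members called for the difference. The median difference kept its sign in all 23 other settings tried for light reactions (-3.79 to -2.26), the Calvin cycle (-2.40 to -0.40), photorespiration (-2.15 to -0.99), chlorophyll synthesis (-2.66 to -0.89), ribosomal proteins (-2.32 to -0.69) and LEA proteins (1.21 to 4.51), and for heat shock and pathogenesis-related proteins (0.14 to 1.57 and 0.21 to 3.19). It changed sign in 1 setting for lipid transfer proteins and in 8 for abscisic acid genes. These signs are taken against 0, and the median over all genes moved between settings too. In 12 libraries the Calvin cycle median of -0.52 lay above that of all genes (-0.70). Those of light reactions (-2.48), photorespiration (-1.04), chlorophyll synthesis (-1.41) and ribosomal proteins (-1.53) lay below it.

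Opposite responses made up 409 genes, and 345 of them had a response below 0 in APO and above 0 in IR64 (1.51%), with medians of -3.02 in APO and 1.57 in IR64. The other 64 pointed up in APO and down in IR64 (0.281%), with medians of 2.91 and -1.63. Both responses were called for 2 genes, APO alone for 283, IR64 alone for 3 and neither for 121. Drought and control libraries did not overlap in either cultivar, in opposite directions, for 122 of the 409 in 10 libraries (against 3.69% of all genes tested), and for 22 in 12 libraries (against 0.699%). Because the classes were formed from these responses, the counts describe them and do not test them.

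The 2 genes with both responses called were OsSOD4 (Os08g0561700, chromosome 8, 28132469 to 28135505), a superoxide dismutase, and Os09g0517000, which has no symbol. OsSOD4 stood at 100.8 and 83.5 rescaled TPM in APO drought 2 and 3 and 430.6 and 374.3 in APO control 1 and 2, against 621.2, 637.5 and 563.0 in IR64 drought and 141.1, 110.8 and 277.5 in IR64 control. It fell in APO by 2.12 ± 0.44 and rose in IR64 by 1.89 ± 0.36, and the difference was -4.01 ± 0.57 (adjusted p = 0.00955). The library labelled APO drought 1 was at 721.4, above every APO control library. Os09g0517000 had responses of -1.98 and 2.03. In SUS1, a sucrose synthase, OsLTPd8 and Os11g0121500 only the IR64 rise was called, by 3.37, 2.52 and 3.20. SUS1 stood at 2.26 and 6.26 in APO drought 2 and 3 and 7.55 and 11.6 in APO control 1 and 2, against 26.5, 79.8 and 59.9 in IR64 drought and 6.48, 1.77 and 4.91 in IR64 control. APO control 3, at 5.66, lay within the APO drought range, and the IR64 groups did not overlap.

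Among genes with a symbol, the 6 largest opposite differences that were lower in APO shrank without IR64 control 1 and 2. What was left was mainly the APO fall. OsG6PDH4 (Os03g0412800), a glucose-6-phosphate dehydrogenase of the pentose phosphate pathway, stood at 0 and 3.33 in APO drought 2 and 3 and 85.0 and 72.8 in APO control 1 and 2. In IR64 it stood at 117.5, 103.6 and 182.9 in drought and 12.8, 7.52 and 86.1 in control. IR64 control 3, at 86.1, was closer to IR64 drought than to the other controls. Lhca6, a light-harvesting gene of photosystem I, had the same arrangement, with 0 and 2.21 in APO drought 2 and 3 and 64.1 and 164.5 in APO control 1 and 2, against 125.8, 79.4 and 94.4 in IR64 drought and 9.65, 3.37 and 124.5 in IR64 control (difference -8.32 ± 1.61, adjusted p = 0.0218). The ribosomal protein gene rpl12-2 (-8.21 ± 1.297), the glutamate synthase gene OsGLT2 (-7.91 ± 1.96), YL1 (-7.70 ± 1.46) and the immunophilin gene OsFKBP16-2 (-7.45 ± 1.28) completed the named set. Without IR64 control 1 and 2 the difference was -5.85 for OsG6PDH4, -5.51 for Lhca6, -7.14 for rpl12-2, -4.41 for OsGLT2, -5.32 for YL1 and -5.07 for OsFKBP16-2. In the same order the APO responses alone were -5.26, -5.86, -6.46, -3.95, -5.21 and -5.59. The IR64 responses were then below 1 log2 unit in size, so none of these genes met the definition of opposite. Over the 345 genes, IR64 control 3 was nearer to IR64 drought than to IR64 control 1 and 2 for 330 (95.7%, against 64.6% of all genes tested with an APO response below 0). Their median IR64 response was 0.04 against IR64 control 3 alone and 2.32 against IR64 control 1 and 2. Without IR64 control 1 and 2 the opposite class held 8 genes, and without IR64 control 3 it held 2076. The clock gene CCA1, named after its values were seen, had levels of 635.5, 953.0 and 1.91 over IR64 control 1, 2 and 3. The hour of harvest is not given in the sources used here, and its part in the IR64 responses was not tested.

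Of the 64 opposite genes with an APO response above 0, IR64 control 3 was nearer to IR64 drought for 38 (59.4%, against 49.3% of all genes tested with an APO response above 0). Their median IR64 response was -0.82 against IR64 control 3 alone and -1.97 against IR64 control 1 and 2. OsMyb1R differed by 8.11 ± 1.40 with 10 libraries (adjusted p = 0.0159). OsVTE3, of tocopherol and plastoquinone synthesis, stood at 14.1 and 13.1 in APO drought 2 and 3 and 0 and 0.959 in APO control 1 and 2, against 0 in all 3 IR64 drought libraries and 63.4, 97.2 and 1.31 in IR64 control. IR64 control 3 lay away from the other IR64 controls for this gene. The sl gene, a cytochrome P450 of serotonin synthesis, stood at 235.5 and 280.4 in APO drought 2 and 3 and 5.45 and 7.27 in APO control 1 and 2, against 2.85, 10.4 and 0 in IR64 drought and 9.18, 9.75 and 13.3 in IR64 control, where the 3 controls were close. Os5bglu22, OsB and OsABCF6 differed by 7.45 ± 1.43, 7.30 ± 1.83 and 6.68 ± 1.63. For each of these IR64 control 3, at 13.4, 1.43 and 57.4, again lay away from IR64 control 1 and 2.

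**Figure D4:**
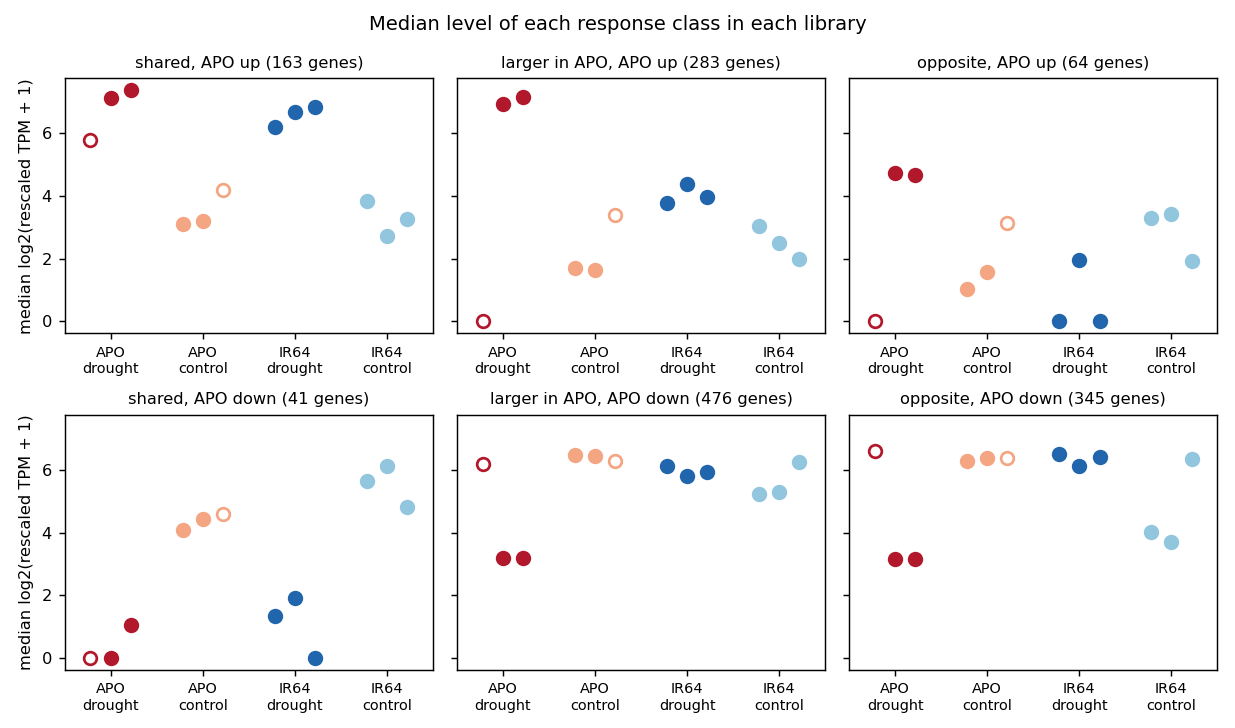
Median log2(rescaled TPM + 1) of each response class in each library, one point a library, with open points for the 2 libraries left out. In the 345 opposite genes that were lower in APO drought, APO drought 2 and 3 (3.15 and 3.16) stand low with IR64 control 1 and 2 (4.02 and 3.72), while IR64 control 3 (6.35) and the library labelled APO drought 1 (6.61) stand with the remaining libraries.

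The libraries outside the 10 sided with different groups by class. For the genes larger in APO that rose there, the library labelled APO drought 1 was nearer to APO control for 243 of 283. In that library 174 of the 283 were at 0. For those that fell in APO it was nearer to APO control for 353 of 476, and for opposite genes lower in APO for 287 of 345. For shared rises it was nearer to APO drought for 84 of 163 (51.5%), and for shared falls for 35 of 41. Of those 41 falls 29 were at 0 in it (70.7%, against 54.1% of all genes tested with an APO response below 0), so their nearness says little. All genes tested gave 23.4% nearer to APO drought where the APO response was above 0 and 61.5% where it was below 0. APO control 3 was nearer to APO control for 231 of 283, 436 of 476 and 314 of 345 genes of the first 3 sets.

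Of 80 ribosomal protein genes tested, 5 had a lower response in APO and 0 a higher one, against 3.65% lower among all genes, a share too close to read as a result on the list. Of the 80 differences 76 were below 0, beside 13234 of 22812 over all genes. The median response was -1.12 in APO and 0.69 in IR64. Summed over 85 genes, levels were 3134 and 3801 rescaled TPM in APO drought 2 and 3 and 7313 in the library labelled APO drought 1, 7971, 7323 and 7907 in APO control, 7731, 8923 and 6668 in IR64 drought, and 3318, 2926 and 7545 in IR64 control. APO drought 2 and 3 and IR64 control 1 and 2 were the low libraries, and IR64 control 3 was not. The called members were rpl12-2, OsRPL21 (-5.73 ± 1.21), RPL5 (Os01g0278900, -4.79 ± 0.53), OsRPL35a.3 and RPS4 (Os05g0368300), the last 2 named because the count is small.

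The IR64 only class held 8 genes, 6 up (0.0263%) and 2 down (0.00877%). BWMK1 (Os06g0708000, chromosome 6, 29949898 to 29954873), a mitogen-activated protein kinase, stood at 39.97 and 53.8 rescaled TPM in APO drought 2 and 3 and 71.5 and 51.3 in APO control 1 and 2, which overlap. In IR64 it stood at 122.6, 140.9 and 133.2 in drought and 38.6, 36.3 and 57.3 in control, which do not. The difference was -1.97 ± 0.49 (adjusted p = 0.0454), and the library labelled APO drought 1 was at 113.0. DEFL8, a defensin-like gene, had a response of 0.93 ± 0.42 in APO and rose in IR64 by 3.41 ± 0.34 (difference -2.49 ± 0.55, adjusted p = 0.0323). The APO response of DEFL8 was not called, but its APO groups did not overlap. Its levels were 152, 111.4 and 138.9 in APO drought, against 53.6, 78.8 and 0 in APO control. In IR64 they were 106, 105.8 and 96.35 in drought and 11.6, 5.36 and 10.5 in control. With all 12 libraries its responses were 3.04 in APO and 3.41 in IR64. That difference of -0.38 ± 1.67 did not pass (limma adjusted p = 0.957). An aquaporin gene of the PIP2 group (Os04g0233400) stood at 13.5 and 9.80 in APO drought 2 and 3 and 9.62 and 11.9 in APO control 1 and 2, against 84.7, 105.6 and 95.8 in IR64 drought and 18.3, 12.2 and 20.9 in IR64 control. LGD1 rose in IR64 by 3.22. Os04g0635500 and Os03g0289350 have no symbol, and the second was listed at 0 in all 6 APO libraries. On the falling side were Os04g0593400 (0.98 in APO, -4.38 in IR64) and Os11g0544900, which was at 0 in every library except IR64 control, where it was at 6.92, 5.02 and 9.56. In IR64 the drought and control libraries did not overlap for any of the 8 (against 20% of all genes tested), which the class itself favours, since it needs a called IR64 response.

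The cultivars differed more in drought than in control for 70.6% of all genes tested with an APO response above 0 and for 61.1% of those below 0, beside which the classes are given. For the 283 rises the median APO minus IR64 difference was 3.05 log2 units in drought and -0.45 in control, with the larger size in drought for 259. For the 476 falls it was -2.79 in drought and 0.76 in control, with the larger size in drought for 438. For the 345 opposite genes lower in APO drought it was -3.13 in drought and 1.58 in control. The 2 IR64 only falls were the reverse, with the larger difference in control for both.

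Calls leaned on single libraries. Leaving out each of the 10 libraries in turn gave 15 to 4633 calls. Among APO libraries, omitting drought 2 or 3 gave 143 or 2139, and omitting control 1 or 2 gave 15 or 47. Among IR64 libraries, omitting drought 1, 2 or 3 gave 319, 631 or 704, and omitting control 1, 2 or 3 gave 218, 425 or 4633. Adding APO control 3 to the 10 gave 1183 calls, 924 of them the same genes, and adding the library labelled APO drought 1 gave 0. In every one of the 10 leave-one-out fits 15 genes were called, and 119 in at least 8. The 15, which were singled out after their values were seen and whose fits share most libraries, included OsGS1 and OsDT11 among the rises of APO. The falls of APO among them included OsGDCH, PsbY, RbcS5 and RPL5, OsLFNR2, a leaf ferredoxin-NADP reductase, CP29, a light-harvesting protein of photosystem II, OsTPT1, the triose phosphate translocator of the chloroplast envelope, and OsSK4. OsTPT1 stood at 11.5 and 9.88 rescaled TPM in APO drought 2 and 3 and 345.0 and 363.0 in APO control 1 and 2, against 289.0, 169.7 and 227.2 in IR64 drought and 201.2, 226.3 and 344.8 in IR64 control. The 5 without a symbol were Os02g0581100, Os12g0498500, Os04g0191500, Os06g0715200 and Os05g0508900. Os02g0581100 was the single opposite gene of the 15, at 7.77 and 9.38 in APO drought 2 and 3 and 130.7 and 272.5 in APO control 1 and 2, against 240.2, 176.6 and 191.6 in IR64 drought and 80.7, 79.3 and 103.8 in IR64 control.

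**Figure D5:**
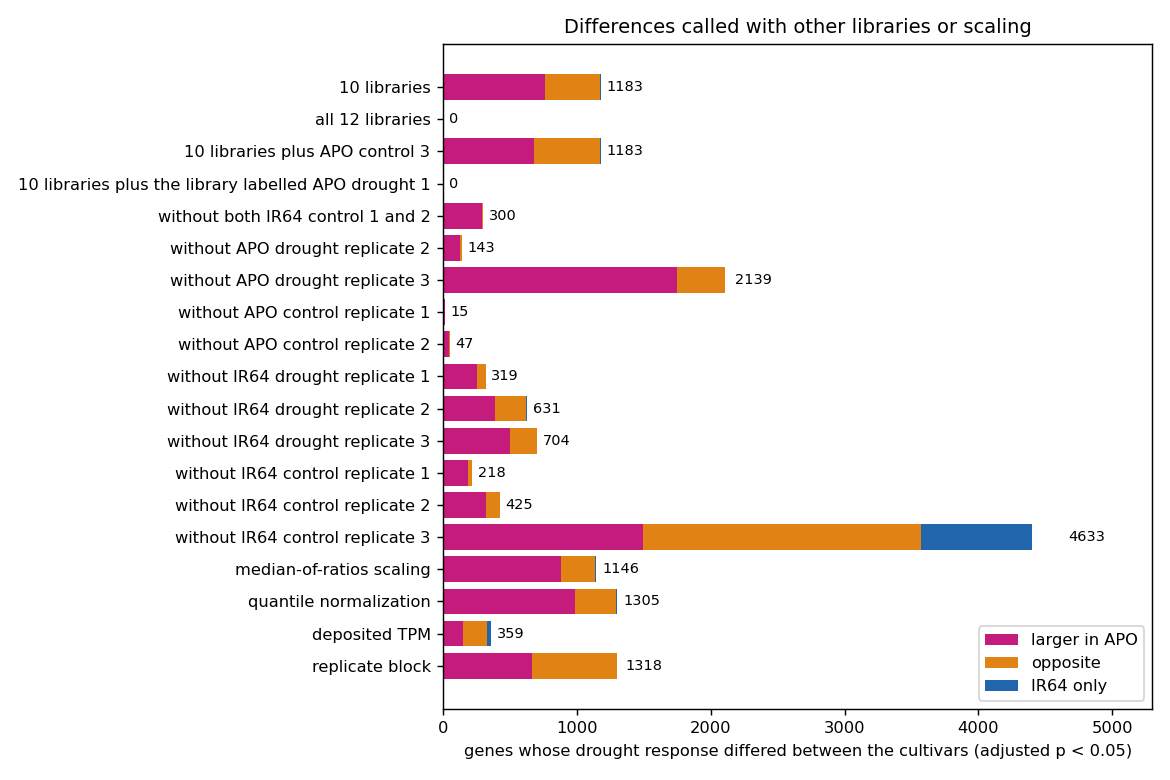
Number of genes whose drought response differed between the cultivars (limma, adjusted p below 0.05), with the total beside each bar and colours for 3 response classes (genes of other classes or of none are not drawn). The 10-library fit gives 1183, all 12 libraries give 0, leaving out 1 of the 10 libraries gives 15 to 4633, and leaving out IR64 control 1 and 2 together gives 300, of which 8 are opposite.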

How the data were processed

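Polysome-bound mRNA of rice leaf was measured in 12 libraries, grouped by the cultivar and treatment of the labels, with no library reassigned. Per the submitters' processing notes HISAT2 2.1.0, StringTie 1.3.4 and DESeq2 2.11.38 were used, with no role given. The gene tables of the authors hold coverage, a signal unit of mean read depth per base. The deposited FPKM and deposited TPM scale it by library and length, over all annotated genes including ribosomal RNA. Read counts were not used here, so depth is known only as coverage divided by FPKM, which ran from 0.61 to 7.34. Build and annotation are not given in the sources used here; coordinates are those of the tables.

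TPM was rescaled over nuclear loci, since unequal ribosomal RNA moves every deposited TPM. Genes with a mean of at least 1 were tested with limma 3.58.1 (R 4.3.3; trend, 4 group means, no replicate block), two-sided, with Benjamini-Hochberg adjustment over all genes; the SE is moderated and pooled over groups. The fit was tried on simulated data with normal noise, whose spread for a gene was the same in every library. The libraries here were unequal, so that trial does not show the error rate in these data. Tables and figures used Python 3.11.15, pandas 2.3.3, numpy 2.4.6 and matplotlib 3.10.9. The cultivar contrast, classes and the 22 gene lists (matched by symbol patterns, 9826 loci with a symbol) were chosen with earlier results of these data known, and list spellings were adjusted once symbols were seen. Genes were named by rule, among loci with a symbol: the 5 smallest p in each direction over 12 libraries; of each class the 6 largest differences, or smaller responses where shared, in each direction; and up to 3 called members of a list. The alternatives were another pseudocount (0.1), no filter or a filter at 5, deposited TPM, FPKM, median-of-ratios and quantile scaling, library weights, a replicate block and other sets of libraries. Promoter sequences were not used here.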

Additional observations from a re-analysis of the deposited data

Results flagged for a closer look

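Under the same drought contrast, the response of 1183 genes differed between APO and IR64 by the test of the difference in 10 libraries, and 0 in 12. Of these, 759 were larger in APO, 409 opposite and 8 called in IR64 only. Each of the 1183 meets the criterion of a tested difference between groups, and the 15 that were also called without any single library are given here as differences of log2(rescaled TPM + 1), APO minus IR64. The response was higher in APO for OsGS1 (8.23) and OsDT11 (7.03). It was lower in APO for OsGDCH (-7.75), PsbY (-6.70), RbcS5 (-6.00), OsLFNR2 (-5.64), Os02g0581100 (-5.51), Os12g0498500 (-5.36), OsSK4 (-5.06), CP29 (-5.00), Os04g0191500 (-4.82), RPL5 (-4.79), Os06g0715200 (-4.79), OsTPT1 (-4.76) and Os05g0508900 (-4.31). The values of OsGS1 and OsDT11 depend on the added 1, since IR64 was at or near 0.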

How the results depend on the processing

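The cause of each change below was not tested. Counts of genes that differed between the cultivars in 12 libraries (0) were 12 in deposited TPM, 19 in deposited FPKM, 6625 with library weights, 1183 with 10 libraries, and 0 to 1183 with 1 library left out (1183 without the library labelled APO drought 1, 408 without IR64 control 3 and 39 without APO drought 3). In 10 libraries (1183) they were 578 with a pseudocount of 0.1, 609 without a filter, 359 in deposited TPM, 305 in deposited FPKM, 5292 with weights, 300 without IR64 control 1 and 2, 0 with all 12 libraries or with the library labelled APO drought 1 added, and 15 to 4633 with 1 left out. Shared genes in 12 libraries (2) were 1 under median-of-ratios scaling, 921 with weights, 0 with the replicate block, 0 without IR64 control 1 and 2, 204 in 10 libraries, and 0 to 130 with 1 left out. APO calls in 12 libraries (793) were 324 with a pseudocount of 0.1, 500 without a filter, 95 and 96 in deposited TPM and FPKM, 5754 with weights, 388 without IR64 control 1 and 2, 3285 in 10 libraries and 201 to 3063 with 1 left out. IR64 calls in 12 libraries (2) were 5 without a filter, 266 and 291 in deposited TPM and FPKM, 1 under median-of-ratios scaling, 6924 with weights, 0 with the replicate block, 0 without IR64 control 1 and 2, 325 in 10 libraries and 0 to 527 with 1 left out. In 10 libraries, APO calls (3285) were 1310 and 1054 in deposited TPM and FPKM, 793 with all 12, 406 with the library labelled APO drought 1 added and 1022 to 4803 with 1 left out. IR64 calls (325) were 120, 99, 1015, 901, 104, 6465, 162, 96, 2, 187 and 10 with a pseudocount of 0.1, no filter, deposited TPM, FPKM, median-of-ratios scaling, weights, the replicate block, no IR64 control 1 and 2, all 12, APO control 3 added and the library labelled APO drought 1 added, and 62 to 3912 with 1 left out. In the same order, leaving out deposited TPM, shared genes (204) were 88, 69, 97, 59, 802, 91, 80, 2, 130 and 9, and 42 to 645. Genes larger in APO (759) were 381 with a pseudocount of 0.1, 482 without a filter, 147 and 125 in deposited TPM and FPKM, 1922 with weights, 291 without IR64 control 1 and 2, 0 with all 12 or the library labelled APO drought 1 added, and 14 to 1745 with 1 left out. Genes of IR64 only (8) were 5 with a pseudocount of 0.1, 33 and 36 in deposited TPM and FPKM, 780 with weights, 1 without IR64 control 1 and 2, 0 with all 12 or the library labelled APO drought 1 added, 4 with APO control 3 added, and 0 to 829. Opposite genes (409) were 189 with a pseudocount of 0.1, 120 without a filter, 179 and 143 in deposited TPM and FPKM, 254 under median-of-ratios scaling, 2152 with weights, 634 with the replicate block, 8 without IR64 control 1 and 2, 0 with all 12 or the library labelled APO drought 1 added, and 1 to 2076. Replicate numbers did not pair the libraries: over 18 pairs with the same number the correlation of deviations ran from -0.267 to 0.174 and was over 0.1 in 3, and with the replicate block 1318 genes differed in 10 libraries and 0 in 12. No result of these tables changed sign while called. Of 103 genes followed, 64 stayed on their side of the threshold with a pseudocount of 0.1, 44 in deposited TPM, 80 under median-of-ratios scaling and 2 with all 12 libraries. Low nuclear content limits the library labelled APO drought 1, where a 0 may mean too little sampling.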

Other observations

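The counts below stand beside 1.54% of all genes with a higher and 3.65% with a lower response in APO, and with 1 to 3 members called they say little about a list. Of 39 genes for sugar transport and sucrose metabolism, 2 had a higher and 2 a lower response in APO, with median responses of 0.92 in APO and 0.31 in IR64. The invertase gene OSINV2 (3.40 ± 0.74) was higher and the sugar transporter gene OsSWEET1a (-3.66 ± 0.90) lower. Of 32 nitrogen genes, 1 was higher (OsGS1) and 1 lower, Amt (Os04g0623800, -3.34 ± 0.77). Amt is in the list by its symbol alone, and its function was not checked. Its level fell in both cultivars, by 5.69 in APO and 2.35 in IR64. Of 10 genes of proline metabolism and trehalose phosphatases 0 differed, and P5CS2 rose by 6.36 in APO and 3.20 in IR64 (difference 3.16, adjusted p = 0.0598; named after its values were seen). Of 28 antioxidant genes 3 were lower, OsSOD4, the ascorbate peroxidase gene OsAPx4 (-1.79 ± 0.46) and OsDHAR2 (-2.56 ± 0.56), and 0 higher. Of 24 aquaporin genes 2 were lower, both of the PIP2 group, Os09g0541000 through a fall in APO (-4.94) and Os04g0233400 through a rise in IR64 (2.44).

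Of 57 NAC genes 2 were higher, NAC5 (3.72 ± 0.89) and ONAC088 (2.06 ± 0.51), and 0 lower. Of 74 WRKY genes OsWRKY10 was higher (4.38 ± 0.96) and OsWRKY4 lower (-4.40 ± 1.10). OsWRKY10 stood at 17.7 and 27.8 rescaled TPM in APO drought 2 and 3 and at 14.6 in APO control 3. With 12 libraries its difference was 1.79 (limma adjusted p = 0.746). Of 39 jasmonate genes OsOPR6 and OsOPR5 were higher (4.29 ± 0.75 and 3.998 ± 0.89) and the lipoxygenase gene OsLOX7 lower (-3.42 ± 0.75). OsOPR5 stood at 11.8 and 11.6 rescaled TPM in APO drought 2 and 3, below the 16.8 of APO control 3. With 12 libraries its difference was 1.52 (limma adjusted p = 0.772). Of 13 senescence genes OsSAG13 was lower (-3.67 ± 0.74). Of 73 ERF and DREB genes, 18 flowering genes and 14 clock genes, 0 passed. The clock gene CCA1, named after its values were seen, stood at 33.7, 82.6 and 55.5 rescaled TPM in the libraries labelled APO drought 1, 2 and 3 and 3.44, 1.63 and 6.01 in APO control, against 28.2, 2.60 and 9.74 in IR64 drought and 635.5, 953.0 and 1.91 in IR64 control. The Rubisco activase gene OsRcaII stood at 42490, 56330 and 278.2 in IR64 control 1, 2 and 3, so it too set control 3 apart. LHY, a clock gene closely related to CCA1, was a shared rise (4.46 in APO, 2.48 in IR64). Over 23 other settings the median difference changed sign for the clock and NAC lists in 5 and 7, for senescence in 8, for ERF and DREB in 4, for flowering in 3, for the nitrogen, sugar, antioxidant and jasmonate lists in 2 each, and for aquaporins and WRKY in 1 each.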
